A study of Mus musculus with 6 samples.

Results

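The 10 genes described here act at intracellular lipid droplets or on the supply and use of the fatty acids stored in them. They are the perilipins Plin1, Plin2, Plin3, Plin4 and Plin5, the droplet proteins Cidea and Cidec, the lipase gene Pnpla2, Angptl4 and Pdk4. They were taken by gene symbol, from a list drawn up with earlier results of these data known, and each had 1 row among the 43346 genes of the deposited count table. All 10 passed the filter on low counts, which left 20210 genes to test. RNA-seq libraries were made from hindlimb and forearm bones of C57BL/6 mouse pups aged 1 day. The tested libraries were 3 labelled Hdac3 CKO, a conditional knockout of the histone deacetylase gene Hdac3 with Prx1, and they were compared with 3 labelled WT. The Prx1 enhancer is commonly used to drive Cre recombinase in limb bud mesenchyme, from which bone, cartilage and tendon arise, whereas blood cells and muscle fibres come from other lineages. The labels do not describe the Hdac3 allele, do not say whether WT pups carried Cre, and do not say whether libraries came from separate animals or litters. P-values thus measure how these 6 libraries vary, part of which may be technical.

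A lipid droplet is a core of triglyceride and sterol esters under a phospholipid monolayer that carries coat proteins. Perilipins coat the droplet and limit access of lipases, CIDE proteins move lipid from smaller to larger droplets, and adipose triglyceride lipase, encoded by Pnpla2, starts the release of fatty acids. Angptl4 is a secreted inhibitor of lipoprotein lipase, the enzyme that frees fatty acids from circulating lipoproteins, and Pdk4 is a kinase that shuts down the pyruvate dehydrogenase complex when fatty acids are burned. Several of these genes, among them Angptl4, Plin2 and Pdk4, are known targets of the PPAR nuclear receptors in other tissues.

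Hdac3 itself stood at 31.8, 29.4 and 28.3 CPM (counts scaled to library size by TMM) in Hdac3 CKO replicates 1, 2 and 3, against 48.4, 47.4 and 50.3 CPM in WT replicates 1, 2 and 3. Its log2 fold change was -0.71 ± 0.12 (SE, adjusted p = 0.027), which follows the labels; with 1 library left out at a time the adjusted p lay between 0.0167 and 0.126. Total counts per library ran from 43389262 to 46926855 in Hdac3 CKO, and from 46156691 to 50927978 in WT. The sum of 10 osteoblast markers was 71006 to 101340 CPM in Hdac3 CKO and 46148 to 61469 CPM in WT, most of it from the collagen genes Col1a1 and Col1a2, which fibroblasts also express. Of these 10 markers, 1 rose (Dmp1) and 0 fell, and Runx2, Bglap and Bglap2 had log2 fold changes below 0 (-0.44, -0.23 and -0.42) and did not pass. With 1 library left out, Dmp1 passed only without WT replicate 3 (adjusted p = 0.0284). Its adjusted p was 0.0788 to 0.179 without any of the other libraries. Skeletal muscle RNA was also abundant: 10 muscle markers summed to 33981 to 55862 CPM in Hdac3 CKO and 30297 to 37228 CPM in WT, with the highest sum in Hdac3 CKO replicate 1. Cartilage markers were high in Hdac3 CKO replicate 3 (16970 CPM) and WT replicate 3 (8448 CPM), against 2322 to 3035 CPM in the other libraries. Y-linked RNA was highest in Hdac3 CKO replicate 3, where Ddx3y stood at 48.1 CPM, against 0.170 and 0.775 CPM in the other Hdac3 CKO libraries and 2.18, 0.388 and 0.0610 CPM in WT. The X-linked RNA Xist had means of 715 ± 703 CPM in Hdac3 CKO and 1860 ± 215 CPM in WT (SD, n = 3 each), without overlap. Xist and the Y-linked genes together summed to 702, 1429 and 152 CPM in Hdac3 CKO replicates 1, 2 and 3. The same sum was 1673 to 2099.7 CPM in WT. Hdac3 CKO replicate 3 thus had the most Y-linked RNA and less than 152 CPM of Xist, a pattern that no WT library had. The labels do not give the sex of the pups, which may differ between the groups. In bulk bone RNA, fewer cells of a type and less RNA per cell cannot be told apart.

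Across the 10 genes, 1 rose in Hdac3 CKO, 0 fell and 9 did not pass the test, in edgeR's quasi-likelihood fit with Benjamini-Hochberg adjustment at 0.05. The gene that rose was Angptl4. Over all 20210 genes tested, 1.18% passed, 0.703% upward and 0.475% downward. The log2 fold change (Hdac3 CKO over WT) was above 0 for all 10 genes, with a median of 0.54. Over all genes 50.1% were above 0, with a median of 0.00098. A uniform direction was not special to these genes: all 10 skeletal muscle markers were also above 0, with a median of 0.36, and 0 passed. The part of muscle RNA in the shared direction of the 10 genes was not tested. Plin3 turned negative when library totals or RPKM values replaced TMM scaling, and with the muscle covariate. Values of Angptl4, Plin2, Plin4, Cidec and Pnpla2 did not overlap between the genotypes and were higher in Hdac3 CKO, 5 of 10 genes beside 11.5% of all genes tested. This holds in TMM-normalised CPM: in deposited RPKM, Plin4 overlapped (lowest 6.63 in Hdac3 CKO, highest 7.19 in WT), as did Cidec (lowest 0.424 in Hdac3 CKO, highest 0.496 in WT). An unadjusted p under 0.05 was found for 5 of the 10 genes (Angptl4, Plin2, Plin5, Cidec and Pnpla2) and for 15% of all genes.

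**Figure D1:**
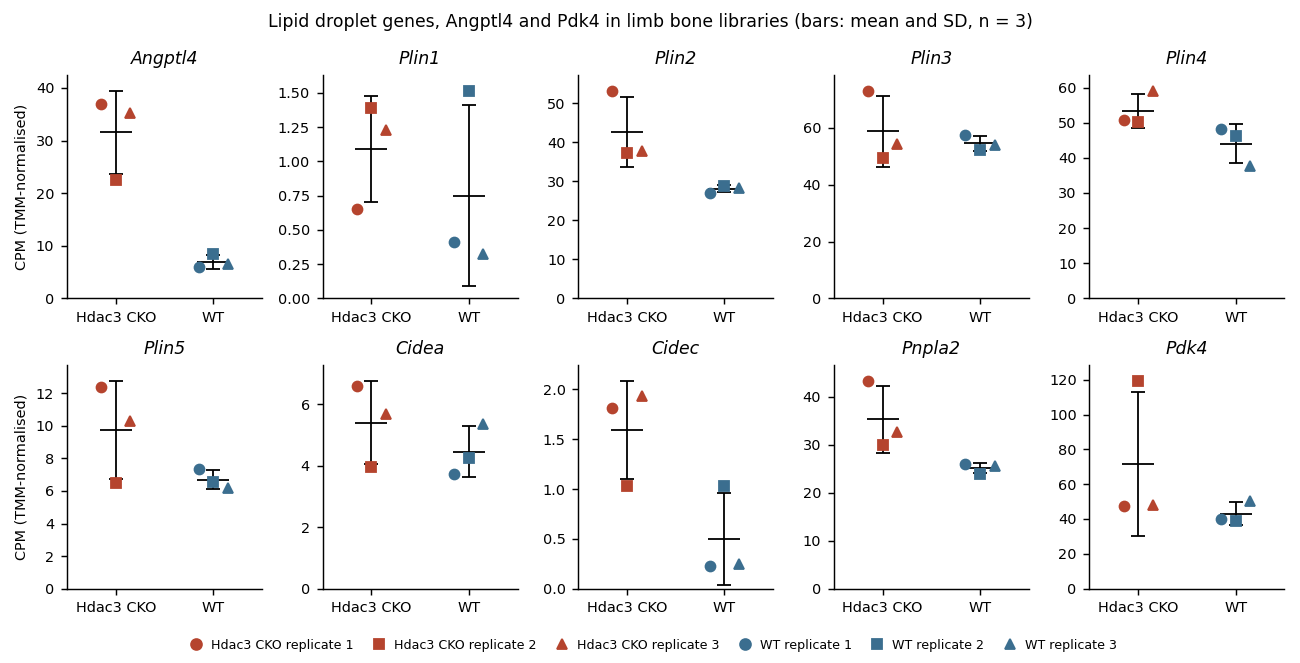
TMM-normalised CPM of the 10 genes in each library, with Hdac3 CKO in red on the left and WT in blue on the right of each panel. Points are libraries, with marker shape giving the replicate, and bars are the mean and SD of 3 libraries. Angptl4 lies between 22.6 and 36.9 CPM in Hdac3 CKO and between 5.96 and 8.41 CPM in WT.

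In deposited RPKM (reads scaled by gene length and library total), Plin3 was highest, with means of 20.7 ± 4.55 in Hdac3 CKO and 20.9 ± 0.824 in WT (SD, n = 3 each), and Pdk4 was next. Angptl4 ranked 5 of 10 by mean RPKM in Hdac3 CKO and 8 of 10 in WT. Its Hdac3 CKO range of 5.23 to 8.60 RPKM overlapped those of Plin2 (8.01 to 11.6 RPKM), Pnpla2 (7.53 to 10.9 RPKM) and Plin4 (6.63 to 7.62 RPKM), so these neighbours were not separated. In WT, Pnpla2, Plin2 and Plin4 overlapped one another between 5.46 and 7.34 RPKM, Cidea (2.42 to 3.86 RPKM) overlapped Plin5 (2.48 to 2.82 RPKM), and Angptl4 lay below both at 1.37 to 2.30 RPKM. Plin1 and Cidec were the lowest genes in both genotypes, with Plin1 at 0.430 RPKM in Hdac3 CKO and 0.338 RPKM in WT, and Cidec at 0.649 RPKM in Hdac3 CKO and 0.233 RPKM in WT. These levels rest on the deposited lengths, 2159 bases for Plin3 and 1916 bases for Plin1. GENCODE M21 gives them more exon bases, 3786 and 4649, and the order with those lengths was not tested.

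Angptl4 (ENSMUSG00000002289, mm10 chromosome 17, 33773750 to 33781575) was counted 1525, 961 and 1514 times in Hdac3 CKO replicates 1, 2 and 3, against 317, 434 and 317 times in WT replicates 1, 2 and 3. This corresponds to 36.9, 22.6 and 35.2 CPM in Hdac3 CKO and 5.96, 8.41 and 6.45 CPM in WT. Every Hdac3 CKO library was well above every WT library, and Hdac3 CKO replicate 2 was the lowest of its group while WT replicate 2 was the highest of its own. The means were 31.6 ± 7.83 CPM in Hdac3 CKO and 6.94 ± 1.30 CPM in WT (SD, n = 3 each), a 4.55-fold rise. The log2 fold change was 2.19 ± 0.22 (SE, 95% interval 1.57 to 2.80), with an adjusted p of 0.00695. It had the 5th smallest p of 20210 genes and the 30th largest log2 fold change. The two-sided exact permutation p over libraries was 0.1, which is the lowest value 3 libraries a group permit. Leaving out each library in turn kept the adjusted p between 0.00243 and 0.0382 and the log2 fold change between 2.04 and 2.38. The call was lost when both cartilage-rich libraries were left out (2.05, adjusted p = 0.0991) and on log2(RPKM + 1) values in limma (1.57, adjusted p = 0.0505), within a range of adjusted p from 5.58e-17 to 0.141 over 21 alternatives. No other annotated gene shares exon bases with Angptl4 in GENCODE M21.

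The gene of the enzyme that Angptl4 inhibits did not pass the test. Lpl, lipoprotein lipase, had 121.6, 179 and 173 CPM in Hdac3 CKO and 168, 192 and 176 CPM in WT, a log2 fold change of -0.18 ± 0.16 (adjusted p = 0.635), and the genotypes overlapped. Gpihbp1, which anchors the lipase on capillary walls, had 38.8, 28.0 and 24.6 CPM in Hdac3 CKO and 24.8, 25.3 and 27.2 CPM in WT, with 0.24 ± 0.17 (adjusted p = 0.536). Of 14 tested genes for the lipase and its regulators, 1 rose, 0 fell and the median was 0.04. The riser was Apoe, a lipoprotein component also made by macrophages, with 288, 215 and 225 CPM in Hdac3 CKO against 114, 96.9 and 109 CPM in WT, and a log2 fold change of 1.18 ± 0.15 (adjusted p = 0.014). Its call was lost without WT replicate 1 (adjusted p = 0.0557) or without WT replicate 2 (adjusted p = 0.0635), in a range of 4.01e-09 to 0.148 over all alternatives. Of 9 macrophage markers, 6 rose and 0 fell, and their sum was 500 to 576 CPM in Hdac3 CKO and 271 to 287 CPM in WT. The count was 5 without Hdac3 CKO replicate 1 or WT replicate 3, 3 without Hdac3 CKO replicate 2 or 3, 1 without WT replicate 1 and 0 without WT replicate 2. The part of macrophages in the Angptl4 and Apoe values was not tested. Furin and Lmf2, a protease that cleaves angiopoietin-like proteins and a factor related to the lipase chaperone Lmf1, had log2 fold changes of 0.39 and 0.32 and did not pass.

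**Figure D2:**
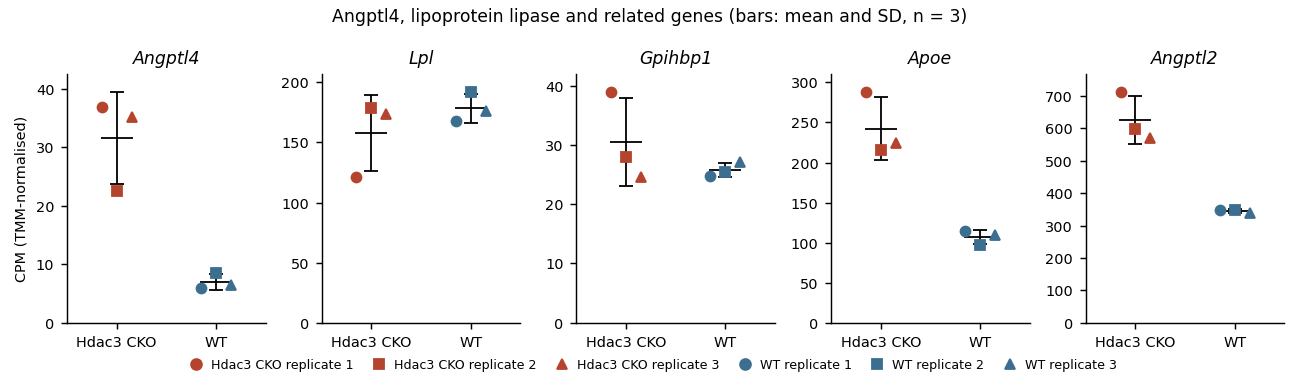
TMM-normalised CPM of Angptl4, Lpl, Gpihbp1, Apoe and Angptl2 in each library, Hdac3 CKO on the left and WT on the right, with mean and SD of 3 libraries. Angptl4, Apoe and Angptl2 separate the genotypes, whereas Lpl and Gpihbp1 overlap.

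Among 6 other angiopoietin-like genes, 1 rose and 0 fell, with a median log2 fold change of 0.18. Angptl2, a secreted family member that is not known as a lipase inhibitor, had 711, 599 and 569 CPM in Hdac3 CKO and 349, 347 and 338 CPM in WT. Its log2 fold change of 0.86 ± 0.14 (adjusted p = 0.0236) came at a higher level per length than that of Angptl4 (75.6 ± 9.88 RPKM in Hdac3 CKO and 45.5 ± 3.90 RPKM in WT, SD, n = 3 each). The call was lost without Hdac3 CKO replicate 3 (adjusted p = 0.0636) and without WT replicates 1, 2 or 3 (adjusted p = 0.106, 0.118 and 0.0907), in a range of 4.27e-06 to 0.24 over all alternatives. Angptl1 had 45.4, 68.3 and 56.7 CPM in Hdac3 CKO and 115, 92.2 and 68.1 CPM in WT, with -0.69 ± 0.21 (adjusted p = 0.169).

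Plin2, the perilipin found on droplets of most cell types (chromosome 4, 86648386 to 86670060), had 53.1, 37.3 and 37.7 CPM in Hdac3 CKO, against 27.0, 28.7 and 28.3 CPM in WT. The genotypes did not overlap, and the WT libraries were close together at 28.0 ± 0.898 CPM, beside 42.7 ± 8.996 CPM in Hdac3 CKO (SD, n = 3 each). The log2 fold change was 0.61 ± 0.16 (1.52-fold, 95% interval 0.16 to 1.05, adjusted p = 0.117). Plin2 did not pass in edgeR and passed in DESeq2 (0.62, adjusted p = 0.0348), in a range of 0.0348 to 0.461 over 21 alternatives. The highest value belonged to Hdac3 CKO replicate 1, the library richest in muscle RNA: without it the log2 fold change was 0.41 (adjusted p = 0.125), and with the muscle markers as a covariate it was 0.37 (adjusted p = 0.34).

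Plin5, the perilipin of oxidative tissues such as heart and muscle (chromosome 17, 56111601 to 56117596), had 12.4, 6.46 and 10.3 CPM in Hdac3 CKO and 7.35, 6.57 and 6.18 CPM in WT. The groups overlapped because Hdac3 CKO replicate 2 lay within the WT range. Its log2 fold change was 0.54 ± 0.23 (95% interval -0.11 to 1.19, adjusted p = 0.325), and 0.31 without Hdac3 CKO replicate 1.

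The promoter windows of Plin2 and Plin5 are shown because, among members with a searched window, theirs held AGGTCA. This hexamer is read by PPAR and other nuclear receptors. Windows are from RefSeq on GRCm38.p6 (mm10) and run from 250 bases before to 50 bases after the start site, on the minus strand, chr4:86670010-86670309 for Plin2 and chr17:56117499-56117798 for Plin5. Capitals mark AGGTCA or its reverse complement TGACCT in both and, in Plin2, the overlapping matches of ACGTG, the core letters of the hypoxia and E-box type elements, on both strands.
Plin2: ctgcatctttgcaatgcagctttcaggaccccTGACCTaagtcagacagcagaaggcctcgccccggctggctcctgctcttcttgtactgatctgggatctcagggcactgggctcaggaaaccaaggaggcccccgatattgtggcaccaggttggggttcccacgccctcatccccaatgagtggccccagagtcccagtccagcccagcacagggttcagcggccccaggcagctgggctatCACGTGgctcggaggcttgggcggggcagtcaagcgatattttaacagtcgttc
Plin5: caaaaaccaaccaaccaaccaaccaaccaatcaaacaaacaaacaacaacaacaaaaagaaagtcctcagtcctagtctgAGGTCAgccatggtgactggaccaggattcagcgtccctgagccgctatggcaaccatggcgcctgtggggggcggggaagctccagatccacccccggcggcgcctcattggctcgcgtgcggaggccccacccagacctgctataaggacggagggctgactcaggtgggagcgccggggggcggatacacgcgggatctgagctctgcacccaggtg
Windows were searched for 8 of the 10 genes, 10 windows in all. Angptl4, the gene that rose, and Cidea were not among them, so the counts given here do not cover these genes. AGGTCA or its reverse complement was in the windows of 2 genes, and it is in 16.3% of all 32851 windows of this length. ACGTG, searched on both strands, was in that of 1 gene (Plin2) and is in 19.6% of all windows. These counts are of genes and the percentages are of windows, so they are not directly comparable. A gene with more than 1 window has more chances of a match. The full PPAR-type repeat, AGGTCA followed by 1 base and AGGTCA again on either strand, is in 0.0396% of all windows. It was in 0 of the members' windows that were searched. The glucocorticoid-type palindrome, AGAACA, 3 bases and TGTTCT, is in 0.00913% of all windows and was also in 0 of the searched ones. A second RefSeq window of Plin5, chr17:56117249-56117548, is not shown and held another AGGTCA at position 14 from its start site. A match describes letters and not a bound site.

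Plin3, the perilipin with the highest deposited RPKM in these bones (chromosome 17, 56278962 to 56290511), is a broadly expressed protein that binds newly formed droplets. It had 72.9, 49.3 and 54.2 CPM in Hdac3 CKO and 57.4, 52.2 and 54.1 CPM in WT. Apart from Hdac3 CKO replicate 1 the libraries of both genotypes were alike in level, with a log2 fold change of 0.11 ± 0.16 (95% interval -0.33 to 0.55, adjusted p = 0.776) that became -0.09 without that library. Plin4 (chromosome 17, 56100591 to 56109803), a perilipin of adipocytes and muscle that coats nascent droplets, had 50.7, 50.3 and 59.0 CPM in Hdac3 CKO and 48.2, 46.3 and 37.7 CPM in WT. The groups did not overlap by a narrow margin, and the log2 fold change of 0.28 ± 0.14 (95% interval -0.11 to 0.67, adjusted p = 0.39) did not pass. Plin4 and Plin5 are neighbours on the minus strand, 1797 bases apart, and Plin3 lies 159879 bases beyond Plin5. Plin4 was also the one member with a shared exon stretch, 17 bases (0.294% of its exons) overlapping Hdgfl2 on the opposite strand.

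Plin1, the perilipin of mature white adipocytes (chromosome 7, 79721164 to 79732776), was barely detected, with 27, 59 and 53 counts in Hdac3 CKO and 22, 78 and 16 counts in WT. In CPM it stood at 0.654, 1.39 and 1.23 in Hdac3 CKO and at 0.413, 1.51 and 0.325 in WT. WT replicate 2 was the highest library of all, and the log2 fold change of 0.54 ± 0.55 (95% interval -0.99 to 2.07, adjusted p = 0.672) was 1.55 without it (adjusted p = 0.267, in a range of 0.267 to 0.969).

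**Figure D3:**
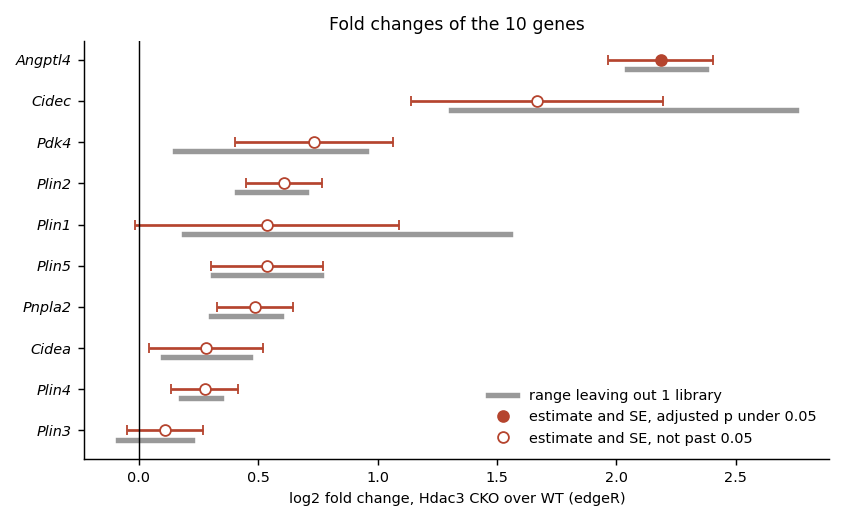
Log2 fold change (Hdac3 CKO over WT) of the 10 genes from edgeR, with SE as red bars; the filled circle is the gene with an adjusted p under 0.05. Grey bars span the values with 1 library left out at a time. Angptl4 at 2.19 is followed by Cidec at 1.67, and the Cidec, Plin1 and Pdk4 grey bars are long. Plin3 crosses 0 without Hdac3 CKO replicate 1, and also with library totals, RPKM values or the muscle covariate.

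Shares of the perilipin mixture were compared per deposited length, since a share does not depend on the library total. Shares with the longer GENCODE M21 exon lengths of Plin3 and Plin1 were not computed. Plin2 made up 23.6%, 23.1% and 20.8% of the summed RPKM of the 5 perilipins in Hdac3 CKO, against 16.6%, 18.5% and 18.8% in WT. The genotypes did not overlap, with 22.5% ± 1.51 in Hdac3 CKO and 17.97% ± 1.20 in WT (SD, n = 3 each), a difference of 4.53 percentage points. An exact permutation of the libraries, two-sided, had p = 0.1, the lowest value the design permits, and the difference lay between 3.85 and 5.39 points in 8 alternatives. Plin3 held 52.8%, 49.7% and 48.6% in Hdac3 CKO and 57.3%, 54.5% and 58.6% in WT, a difference of -6.45 points, again without overlap and with an exact permutation p of 0.1. The shares of a library sum to a fixed total, so a higher Plin2 share lowers the others. The Plin3 difference is thus not a separate result. Plin3 RPKM itself overlapped, with means of 20.7 in Hdac3 CKO and 20.9 in WT. The shares of Plin4, Plin5 and Plin1 overlapped between the genotypes (exact permutation p = 0.8, 0.4 and 0.8). Summed perilipin RPKM was 48.9, 35.0 and 38.5 in Hdac3 CKO and 34.9, 39.7 and 35.8 in WT, so the sums overlapped while the Plin2 and Plin3 shares did not.

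**Figure D4:**
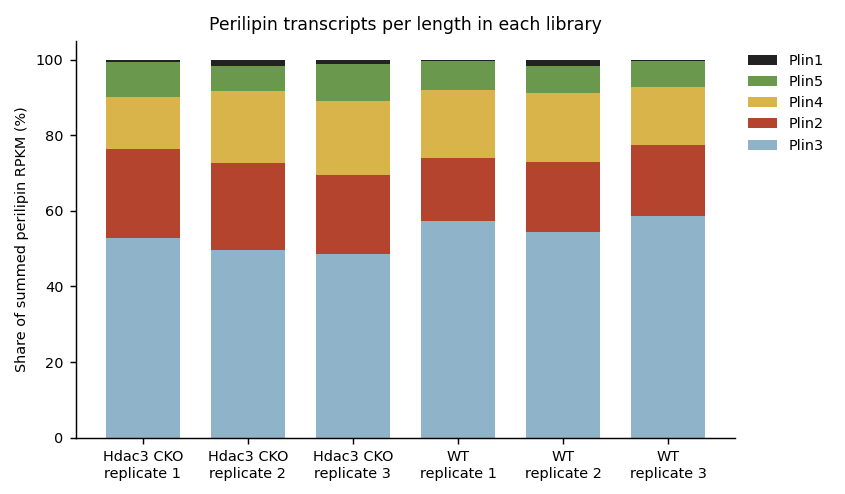
Share of each perilipin in the summed RPKM of Plin1 to Plin5 (percent), 1 bar per library, with the 3 Hdac3 CKO libraries on the left and the 3 WT libraries on the right. The Plin2 segment (red) spans 20.8% to 23.6% in Hdac3 CKO and 16.6% to 18.8% in WT.

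Cidec (chromosome 6, 113424634 to 113435760), which promotes growth of large droplets in fat cells, had 75, 44 and 83 counts in Hdac3 CKO and 12, 53 and 12 counts in WT. In CPM these were 1.82, 1.03 and 1.93 in Hdac3 CKO and 0.225, 1.03 and 0.244 in WT. The lowest Hdac3 CKO library, replicate 2, and the highest WT library, replicate 2, stood at almost the same value, 1.034 against 1.028 CPM. The log2 fold change was 1.67 ± 0.53 (95% interval 0.21 to 3.13, adjusted p = 0.186) and did not pass. Without WT replicate 2 it was 2.75 (adjusted p = 0.0634), and over 21 alternatives the adjusted p lay between 0.0523 and 0.511. Cidea (chromosome 18, 67343564 to 67367794), the related protein typical of brown fat, had 6.59, 3.95 and 5.67 CPM in Hdac3 CKO and 3.74, 4.25 and 5.37 CPM in WT. The genotypes overlapped, and its log2 fold change was 0.28 ± 0.24 (95% interval -0.38 to 0.94, adjusted p = 0.606).

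Pnpla2 (chromosome 7, 141455198 to 141460743), the adipose triglyceride lipase gene, had 43.2, 29.9 and 32.7 CPM in Hdac3 CKO against 25.9, 24.0 and 25.6 CPM in WT. All Hdac3 CKO libraries were above all WT libraries, with a log2 fold change of 0.49 ± 0.16 (95% interval 0.05 to 0.92, adjusted p = 0.197) that did not pass. As with Plin2, the muscle-rich Hdac3 CKO replicate 1 was highest, and the value was 0.30 without it or with the muscle covariate. Of 12 other genes listed for lipolysis, its control and cholesteryl ester turnover, 0 rose and 0 fell in edgeR and 1 had an unadjusted p under 0.05. DESeq2 and limma-voom called 0 of these genes, and their median was -0.01. These included the hormone-sensitive lipase gene Lipe (0.43 ± 0.20), the Pnpla2 activator gene Abhd5 (0.03 ± 0.14) and the Pnpla2 inhibitor gene G0s2 (-0.05 ± 0.30). The median thus pools genes of opposing roles and does not measure lipolysis. The smallest p in that list belonged to Ces1d, a carboxylesterase that hydrolyses triglyceride, at 0.63, 0.235 and 0.674 CPM in Hdac3 CKO and 0.132, 0.0776 and 0.325 CPM in WT (adjusted p = 0.267).

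Pdk4 (chromosome 6, 5483351 to 5496309) had 47.5, 119.1 and 48.3 CPM in Hdac3 CKO and 39.9, 39.0 and 50.5 CPM in WT. Hdac3 CKO replicate 2 alone stood out, and the other 5 libraries lay between 39.0 and 50.5 CPM. The log2 fold change of 0.73 ± 0.33 (95% interval -0.19 to 1.65, adjusted p = 0.341) was 0.15 without that library (adjusted p = 0.617, in a range of 0.178 to 0.682). The same library was also the highest for Klf9 (22.8, 68.6 and 24.5 CPM in Hdac3 CKO, 37.1, 19.6 and 30.4 CPM in WT), a transcription factor gene induced by glucocorticoids, and for the clock gene Per1 (161, 350 and 152 CPM in Hdac3 CKO, 313, 144 and 266 CPM in WT). Klf9 and Per1 were picked after their values were seen. Of 13 other genes for the pyruvate dehydrogenase complex, its kinases and its phosphatases, 0 rose and 0 fell in edgeR, 0 had an unadjusted p under 0.05 and DESeq2 and limma-voom called 0 (median -0.00083), with Pdk1 at -0.26 ± 0.12 and Pdk2 at 0.27 ± 0.24.

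**Figure D5:**
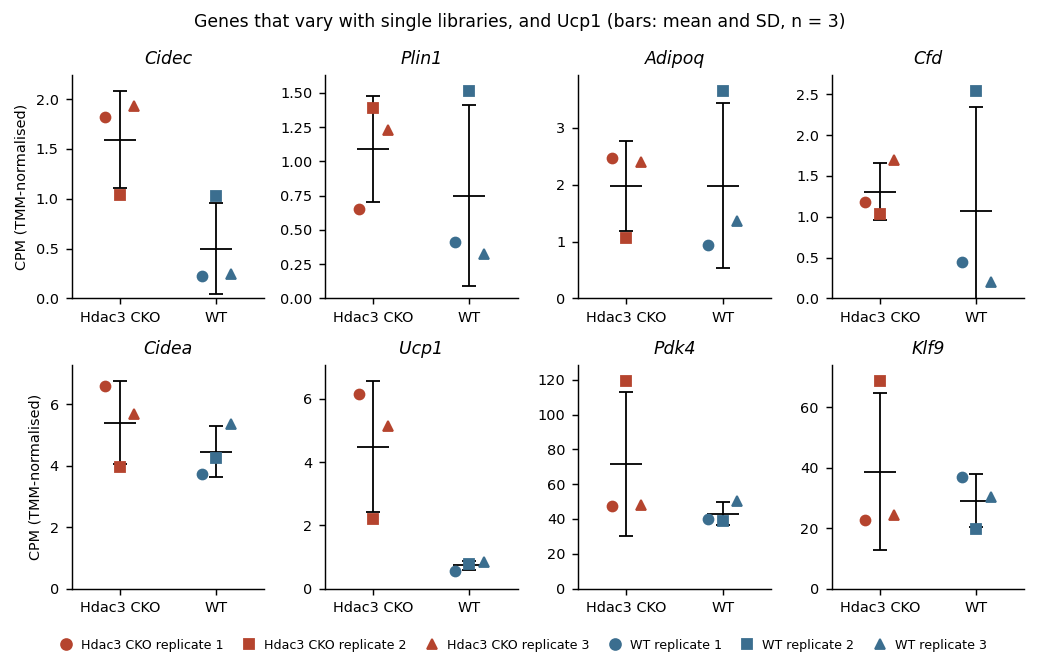
TMM-normalised CPM of Cidec, Plin1, the adipocyte genes Adipoq and Cfd, Cidea, the brown adipocyte gene Ucp1, Pdk4 and Klf9, Hdac3 CKO on the left and WT on the right, with mean and SD of 3 libraries (axes start at 0, so the lower bar of Cfd in WT is not shown in full). WT replicate 2 (blue square) is the highest WT library for Cidec, Plin1, Adipoq and Cfd, and Hdac3 CKO replicate 2 (red square) is highest for Pdk4 and Klf9.

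Of 14 tested adipocyte markers, 0 rose and 0 fell in edgeR, 2 had an unadjusted p under 0.05 and DESeq2 and limma-voom called 0. These 2 were Pck1 (1.25 ± 0.38, adjusted p = 0.174), without overlap between the genotypes, and Slc2a4 (0.47 ± 0.20, adjusted p = 0.305), which overlapped. Of the 14 markers, 10 had a log2 fold change above 0, with a median of 0.20. The summed level of the markers was 457 to 590 CPM in Hdac3 CKO and 448 to 541 CPM in WT. Most of it came from Lpl, Fabp4, Gpd1 and Slc2a4, with means of 158, 130, 93.9 and 81.0 CPM in Hdac3 CKO. The sum thus says little about the markers with low counts. Genes restricted to mature fat were near the detection limit: Adipoq, the adiponectin gene, had 2.47, 1.06 and 2.39 CPM in Hdac3 CKO and 0.939, 3.65 and 1.36 CPM in WT. Cfd, the adipsin gene, had 1.19, 1.03 and 1.70 CPM in Hdac3 CKO and 0.451, 2.54 and 0.203 CPM in WT. Lep, the leptin gene, was too low to test, with 2, 0 and 6 counts in Hdac3 CKO and 0 in each WT library. WT replicate 2 was the library with most Adipoq, Cfd and Plin1, and had the highest Angptl4 value of the WT libraries. With the mean of Adipoq, Retn and Cfd as a covariate, an alternative added after the data were seen, Angptl4 had a log2 fold change of 2.07 (adjusted p = 0.024) and Cidec had 1.54 (adjusted p = 0.096).

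Of 6 tested brown adipocyte markers, 1 rose and 0 fell, with a median of 0.19, and the sum was 76.5 to 109 CPM in Hdac3 CKO and 67.3 to 71.2 CPM in WT. The riser was Ucp1, the uncoupling protein of brown fat, at 6.15, 2.19 and 5.14 CPM in Hdac3 CKO against 0.564, 0.776 and 0.854 CPM in WT, a log2 fold change of 2.62 ± 0.40 (adjusted p = 0.0207). Its call was lost without Hdac3 CKO replicate 3 (adjusted p = 0.0738) and without WT replicates 1, 2 or 3 (adjusted p = 0.0885, 0.0762 and 0.0583), and in 11 of 21 alternatives in all, where the adjusted p ran from 4.01e-09 to 0.238. Cox8b, a cytochrome oxidase subunit gene of brown fat and muscle, had 52.3, 28.4 and 35.7 CPM in Hdac3 CKO and 25.7, 21.5 and 26.1 CPM in WT, without overlap, and did not pass (0.67 ± 0.21, adjusted p = 0.187). Cox7a1, of the same enzyme, had 0.43 ± 0.19 (adjusted p = 0.341) and overlapped, as did Cidea. The other tested markers, Dio2, Prdm16 and Ppargc1a, had log2 fold changes below 0 (-0.04, -0.07 and -0.09) and did not pass. Cox8b had the largest mean of the list, 38.8 CPM in Hdac3 CKO and 24.5 CPM in WT. The part of brown fat in the Angptl4 values was not tested.

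Of 20 tested genes for droplet formation and triglyceride synthesis, 0 rose and 0 fell in edgeR, 3 had an unadjusted p under 0.05 and DESeq2 and limma-voom called 0 (median 0.19). Fitm1, which helps package triglyceride into droplets in muscle, had 109, 58.8 and 67.1 CPM in Hdac3 CKO and 49.98, 53.2 and 55.9 CPM in WT (0.56 ± 0.21, adjusted p = 0.257), again with Hdac3 CKO replicate 1 highest. Dgat1, an enzyme of the last step of triglyceride synthesis, had -0.37 ± 0.16 (adjusted p = 0.318), and Lpin3, a phosphatidate phosphatase gene, 0.48 ± 0.18 (adjusted p = 0.253).

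Of 13 PPAR receptors, partners and coactivators, 0 rose and 0 fell in edgeR, 3 had an unadjusted p under 0.05 and DESeq2 and limma-voom called 0 (median 0.20). Ppara, Ppard and Pparg had log2 fold changes of 0.21 ± 0.19, 0.26 ± 0.14 and -0.14 ± 0.23. Members of this list with an unadjusted p under 0.05 included Rxrb, a partner receptor (0.46 ± 0.13, adjusted p = 0.157), and Ncoa2, a coactivator (-0.35 ± 0.15, adjusted p = 0.316). Of 27 PPAR targets outside the members, 1 rose and 0 fell, 21 had a log2 fold change above 0 and the median was 0.20. The riser was Fgf21, a secreted metabolic hormone, on few reads: 22, 12 and 26 counts in Hdac3 CKO and 4, 0 and 2 counts in WT. Its log2 fold change of 3.51 ± 0.70 (adjusted p = 0.0397) depends on the prior count of the fit, and with 1 library left out it passed without Hdac3 CKO replicate 2 (adjusted p = 0.0418) and had an adjusted p of 0.0843 to 0.156 without any of the other libraries. Creb3l3, a lipid-responsive transcription factor (0.90 ± 0.28, adjusted p = 0.175), and Txnip, a regulator of glucose uptake (0.48 ± 0.15, adjusted p = 0.187), did not pass.

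Angptl4, Plin2 and Pdk4 also respond to low oxygen, glucocorticoids or FoxO factors in various tissues, and lists for these were read from the same fit. Of 14 hypoxia genes, 1 rose and 0 fell (median 0.02): P4ha1, a collagen prolyl hydroxylase subunit, had 471, 458 and 442 CPM in Hdac3 CKO against 223, 246 and 240 CPM in WT (0.95 ± 0.12, adjusted p = 0.014). Its call was lost without WT replicate 1 (adjusted p = 0.0709) or WT replicate 2 (adjusted p = 0.0644), in a range of 3.82e-09 to 0.189. Adm, the adrenomedullin gene and a common hypoxia marker, had -0.80 ± 0.23 (adjusted p = 0.155), and Pdk1 was below 0 as given above. Of 13 glucocorticoid response genes, 0 rose and 0 fell in edgeR, 5 had an unadjusted p under 0.05, DESeq2 called 2 and limma-voom 0 (median 0.28). Among them were Lcn2, a neutrophil granule gene as well, at -1.66 ± 0.39 (adjusted p = 0.0859), Cdkn1c, a cell cycle inhibitor gene, at 0.70 ± 0.19 (adjusted p = 0.132) and Mt1, a metallothionein gene, at 0.63 ± 0.25 (adjusted p = 0.282). Of 8 neutrophil markers, 5 fell and 0 rose, with sums of 18.2 to 28.1 CPM in Hdac3 CKO and 88.8 to 271 CPM in WT. The count was 0 without Hdac3 CKO replicate 1 or 2, 1 without Hdac3 CKO replicate 3 or WT replicate 1, 3 without WT replicate 2 and 4 without WT replicate 3. Their part in the Lcn2 value was not tested. Of 12 FoxO targets, 0 rose and 0 fell in edgeR, 4 had an unadjusted p under 0.05 and DESeq2 and limma-voom called 0 (median 0.05). Among them were the muscle ubiquitin ligase gene Trim63 at 0.49 ± 0.15 (adjusted p = 0.167) and the cyclin gene Ccng2 at -0.41 ± 0.14 (adjusted p = 0.206).

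Genes with profiles nearest to Angptl4, by root mean square difference of centred log2 CPM over the 6 libraries, were 5730435O14Rik (0.271), Plac1 (0.271) and Cd209f (0.278). Plac1, a placenta-enriched gene, had 4.29, 4.77 and 4.53 CPM in Hdac3 CKO against 0.921, 1.16 and 0.956 CPM in WT (log2 fold change 2.16, adjusted p = 0.00695), and the other two had at most 23 counts in a library. For Plin2 the nearest were Ergic1 (0.0439), Mesdc1 (0.0541) and Ftl1 (0.0566), the last a ferritin light chain gene with 158, 118.9 and 114 CPM in Hdac3 CKO and 84.0, 88.3 and 94.999 CPM in WT. Like Plin2, these 3 genes were highest in Hdac3 CKO replicate 1 and did not pass the test. For Pdk4 they were Mir698 (0.141), Mir3061 (0.159) and Gm10654 (0.161), each with a single high library, Hdac3 CKO replicate 2. Gm10654 had 48, 120 and 54 counts in Hdac3 CKO and 65, 55 and 79 counts in WT.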

How the data were processed

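RNA of limb bones was extracted with TRIzol and made into TruSeq v2 mRNA libraries, per the labels' protocols. The authors deposited whole-number counts per gene and RPKM values. The submitters' processing notes name bcl2fastq 1.8.4, TopHat2 2.1.0, Subread, featureCounts and the mm10 build. Antisense and overlapping reads may be mixed, since the sources used here give neither the strand setting nor the annotation release. The deposited RPKM equal counts over gene length plus 1 base and over totals of which 72.1% to 87.0% lay in genes.

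Counts were fitted for all genes with edgeR 4.0.16 (TMM, filterByExpr, robust quasi-likelihood test, no covariate, 4 residual degrees of freedom; R 4.3.3), with Benjamini-Hochberg adjustment over 20210 genes and a threshold of 0.05. Errors of log2 fold changes are SE. The 95% intervals are the SE times a t quantile on 4 degrees of freedom, which is a wider reference than that of the moderated test. An interval can thus span 0 beside an unadjusted p under 0.05, as for Plin5. Pairs of replicates differed beyond sampling noise (chi-square per degree of freedom 43.5 to 120.7). On simulated counts of 19819 genes for Hdac3 CKO against WT, 48.0% of 2-fold and 89.0% of 4-fold changes were called. Unchanged genes made up 12.3% of all calls, which is above the threshold of 0.05, and 0 calls had the wrong sign. Whether these rates hold for the real libraries, which differ in muscle and cartilage RNA, was not tested. With 43389262 to 50927978 counts a library, Plin1 and Cidec rest on few reads.

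Replicates were numbered in record order. Members, lists and tests were chosen with earlier results of these data known. The rule for named genes took all members, Hdac3, up to 3 genes with the smallest p of each list plus those past the threshold, and the 3 genes nearest in profile to Angptl4, Plin2 and Pdk4. Other genes named for their role (such as Lpl and Abhd5) were added afterwards, and genes of the cell type lists are mostly given as counts and sums. Some genes that the rule takes are left out of the text. Alternatives were other size factors, DESeq2 1.42.0, limma-voom and limma 3.58.1 on log2 RPKM (pseudocounts 1 and 0.1; filter RPKM of at least 0.1 in 3 libraries, or none), other count filters, covariates, and left-out libraries. Promoter windows are from RefSeq (GRCm38.p6); exon overlaps are from GENCODE M21.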

Additional observations from a re-analysis of the deposited data

How the results depend on the processing

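The members kept the direction of their log2 fold change in all 21 alternatives except Plin3, which was -0.086 with library totals, -0.035 on log2(RPKM + 1) with or without a filter, -0.037 on log2(RPKM + 0.1), -0.095 with the muscle covariate and -0.086 to 0.22 with 1 library left out. Library totals in place of TMM moved the median of all genes to -0.18. The number of members that rose was 1 in each fit with 1 library left out. It was 2 with DESeq2 (Plin2 0.62), and 0 in limma on log2(RPKM + 1) with or without a filter (Angptl4 1.57) and in edgeR with both cartilage-rich libraries left out (Angptl4 2.05).

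Over all genes, 142 rose and 96 fell (59.7% of calls upward). With library totals 58 rose and 120 fell (32.6% upward).
All calls together numbered 238. The total was 828 with DESeq2 (454 rose, 374 fell), 157 with limma-voom, 9 on log2(RPKM + 1), 35 on log2(RPKM + 0.1), 75 with the muscle covariate and 45 with the adipocyte covariate. It was 0 in limma on log2(RPKM + 1) without a filter (3314 genes at an unadjusted p under 0.05) and 0 in edgeR without both cartilage-rich libraries (2309 genes). With 1 library left out the total was 23 to 175, and it was more than 1.5 times below the full count without Hdac3 CKO replicate 3 or any WT replicate. Single genes that turned were Ckm (-0.0084 with the muscle covariate) and Comp (-0.18 with the Y-linked covariate). With 1 library left out, Comp lay between -0.40 and 1.17, Acan between -0.18 and 1.32 and Gm10654 between -0.10 and 0.64. The cause was not tested. No paired analysis was possible because the labels give no replicate numbers shared between the genotypes. The low counts of Plin1, Cidec and Fgf21 limit what depth can show for them.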
